A study of Mus musculus with 34 samples.

Results

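The 10 genes described here turn over ceramide, sphingosine and sphingosine-1-phosphate, and they were followed through 34 RNA libraries of mouse colon tumour organoids. They were the ceramidases Asah1, Asah2, Acer2 and Acer3, the sphingosine kinases Sphk1 and Sphk2, the lyase Sgpl1, the phosphatases Sgpp1 and Sgpp2, and the exporter Spns2. The members were chosen by gene name, with earlier results of these data known, and all 10 were found among the 54354 genes of the deposited table. Organoids are epithelial cultures grown in 3 dimensions, and the genotype of every group was given as AKP. One experiment used short hairpin RNAs, with 10 control libraries (shControl) and 3 libraries in which Yap1 was the target (shYAP). The other used a CRISPR ribonucleoprotein to cut Degs1, with 3 Scrambled control libraries and 2 Degs1-KO clones, clone1 and clone2, of 9 libraries each. Each clone was 1 line, so a difference between a clone and Scrambled cannot be told apart from a difference between lines. Whether replicates came from separate cultures was not stated, so n counts libraries and p-values measure only how these samples vary, which may be technical.

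Degs1 makes ceramide from dihydroceramide, in the last step of de novo synthesis. Ceramidases then cut ceramide into sphingosine and a fatty acid: acid ceramidase (Asah1) in lysosomes, neutral ceramidase (Asah2) at the cell surface and in intestinal brush border, and the alkaline enzymes Acer2 and Acer3 in Golgi and endoplasmic reticulum. Sphingosine kinases phosphorylate sphingosine to sphingosine-1-phosphate (S1P), a signalling lipid read by G protein-coupled receptors. Sgpl1 degrades S1P irreversibly, Sgpp1 and Sgpp2 return it to sphingosine, and Spns2 carries it out of the cell. The study asked how expression changed after loss of Degs1 and after knockdown of Yap1.

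Total counts ranged from 883253 in clone1 replicate 2 to 6597099. Degs1 averaged 7.72 ± 2.62 CPM (counts relative to the TMM-scaled library total, mean ± SD) in the 3 Scrambled libraries, and 2.41 ± 1.32 and 1.71 ± 0.892 in the 9 libraries each of clone1 and clone2, with edgeR adjusted p = 0.0117 and 1.56e-04. Yap1 averaged 16.5 ± 4.13 CPM over the 10 shControl libraries, against 19.0 ± 1.12 over the 3 labelled shYAP (log2 change 0.20 ± 0.23 SE, adjusted p = 0.619). Its mRNA went against that label, so directions drawn from those libraries refer to the label, since no loss of Yap1 was measured. All 9 epithelial markers were detected in every group. Their summed level was lowest in clone2, at 2696 to 3494 CPM against 4971 to 5202 in Scrambled, 5481 to 6494 in clone1 and 3556 to 3975 in the hairpin libraries. The sum leaned on Lgals4, which averaged 960 CPM in clone2, 2930 in clone1, 2733 in Scrambled and 1790 in shControl. Krt19 was higher in both clones, at 1177 CPM in clone2 and 1256 in clone1 against 918 in Scrambled and 862 in shControl. Of the 9 markers 1 was higher and 6 were lower in clone2 against Scrambled (edgeR adjusted p under 0.05), beside 16.5% and 16.6% of all genes. Of 7 immune markers 2 to 4 were detected per group, with a sum of 12.3 to 40.8 CPM in which Cd68, also a lysosomal protein of other cells, averaged 13.3 to 35.0 by group, and Cd3e was at 0 in every library. Fibroblast and endothelial markers summed to at most 1.18 and 3.11 CPM, with the endothelial Cdh5 and Kdr at 0 throughout, and red cell markers to at most 1.31. The share of mitochondrially encoded counts was 3.01% to 3.33% in Scrambled and 3.71% to 5.25% in the other groups. The part of these values in the results below was not tested. In bulk RNA, fewer cells of a type and less RNA per cell cannot be told apart.

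Libraries with neighbouring numbers within a group resembled each other, and an earlier analysis of these data grouped them into runs: in shControl, replicates 1 to 4, then 5 to 7, then 8 to 10; in clone1, replicates 1 to 6, then 7 to 9; in clone2, replicates 1 and 2, then 3 to 6, then 7 to 9. A batch is not named by the labels. Several members differed between runs in direction or call.

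Promoter sequence is shown for Acer2 and Acer3, the members past the threshold in the most comparisons, as the 250 bases before each start in RefSeq on GRCm38.p6, read 5′ to 3′ on the gene's strand. Capitals mark a match to the AP-1 motif TGANTCA. Acer2 (ENSMUSG00000038007, chromosome 4, 86874396 to 86934822, mm10) has 1 start, with the window chr4:86874164-86874413 on the plus strand. Acer3 (ENSMUSG00000030760, chromosome 7, 98206389 to 98321208) has 2, with the windows chr7:98321209-98321458, which ends at the 5′ end of the GENCODE gene, and chr7:98309543-98309792, inside it, both on the minus strand.
Acer2: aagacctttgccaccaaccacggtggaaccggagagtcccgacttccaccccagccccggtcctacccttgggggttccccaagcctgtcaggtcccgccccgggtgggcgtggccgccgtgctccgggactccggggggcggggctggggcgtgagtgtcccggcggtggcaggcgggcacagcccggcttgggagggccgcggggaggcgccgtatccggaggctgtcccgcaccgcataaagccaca
Acer3, outer start: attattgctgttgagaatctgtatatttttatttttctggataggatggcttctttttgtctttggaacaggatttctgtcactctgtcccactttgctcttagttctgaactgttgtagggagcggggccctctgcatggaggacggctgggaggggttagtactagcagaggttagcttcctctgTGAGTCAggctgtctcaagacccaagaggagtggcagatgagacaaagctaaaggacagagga
Acer3, inner start: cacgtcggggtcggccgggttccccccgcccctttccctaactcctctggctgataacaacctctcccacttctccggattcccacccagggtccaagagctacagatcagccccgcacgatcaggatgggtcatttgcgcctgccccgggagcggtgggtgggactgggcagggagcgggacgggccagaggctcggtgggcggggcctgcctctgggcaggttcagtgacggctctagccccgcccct
The Acer2 window was 73.2% G or C, the outer Acer3 window 46.8% and the inner one 68.4%. The searched motifs were GGAATG (bound by TEAD, the partners of Yap1), TGANTCA (AP-1) and CACGTG (E-box), on both strands, and none overlapped another here. The only match among the sequences shown was the 1 AP-1 match in the outer Acer3 window. Over 32851 windows of the same length, 12.6% held the TEAD motif, 6.75% the AP-1 motif and 6.02% the E-box. Of the 15 windows of the 9 members with an entry, 1 held the TEAD motif, in Sphk1, 4 the AP-1 motif, in Sphk1 (2 overlapping windows), Acer3 and Asah2, and 3 the E-box, in Sphk1 (2 overlapping windows) and Sgpp2. A match is a description of the letters and not a binding site.

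Per length of exon, acid ceramidase was the most abundant of the 10 transcripts. Asah1 stood at 55.4 CPM per kb averaged over the 34 libraries, 75.2% of the sum of all 10. Spns2 (5.03 CPM per kb) and Sgpp2 (4.89) came next at similar levels. Acer3 (2.44), Sgpl1 (2.15), Acer2 (1.71) and Sphk2 (1.38) followed, and Sgpp1 (0.407), Sphk1 (0.213) and Asah2 (0.0763) were near the limit of detection. Within the ceramidases Asah1 made up 85.9% to 96.0% of the level per kb in any library. Sphk2 made up most of the kinase level and Sgpp2 of the phosphatase level in every group: the group means were 81.3% to 90.9% for Sphk2, and the mean ratio of Sgpp2 to Sgpp1 was 12.8 to 19.0, leaving out 1 shControl library with 0 Sgpp1 counts. The lengths are unions of annotated exons, so a gene that uses few of its exons is understated.

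**Figure D1:**
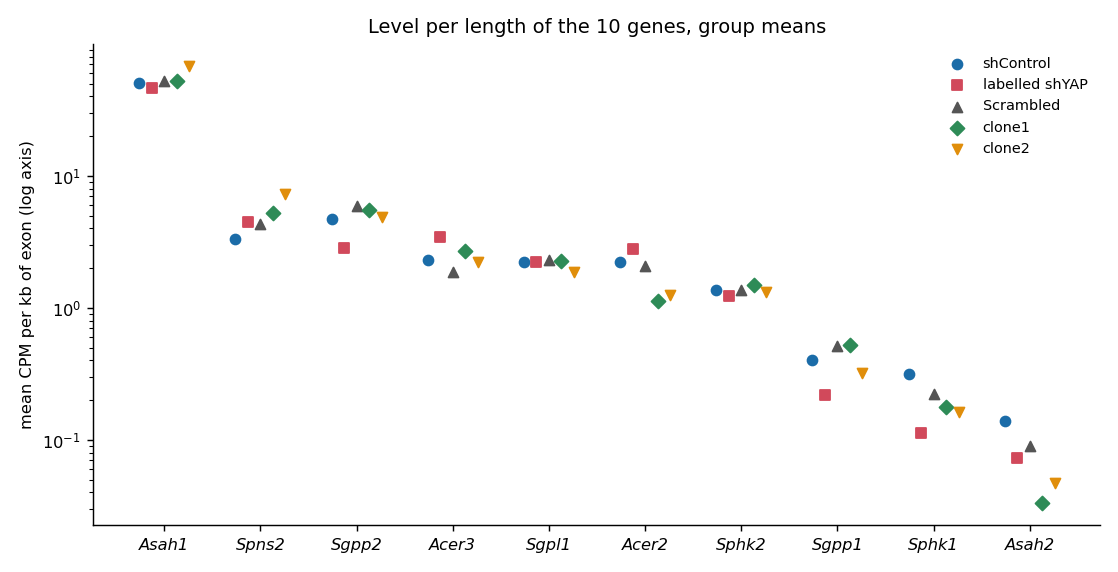
Mean CPM per kb of exon (vertical log axis) of each of the 10 genes in the 5 groups, as 1 point per group. Asah1 lies well above the other genes in every group, and Sgpp1, Sphk1 and Asah2 lie lowest.

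In each comparison 0 to 3 of the genes were counted as changed, given below beside the shares of all genes. No comparison moved them all one way. After the filter on low counts 8 of the 10 were tested in the CRISPR experiment, where Asah2 and Sphk1 did not pass, and 9 in the hairpin experiment and in the fit of all libraries, where only Asah2 did not. A gene was counted as changed at an edgeR adjusted p under 0.05 over all genes tested. In clone1 against Scrambled Acer3 rose and Acer2 fell, 1 gene in each direction, where 5.96% of all tested genes were higher and 6.71% lower. In clone2 against Scrambled Asah1 and Spns2 rose and Acer2 fell, against 16.5% and 16.6% of all genes. With both clones weighted equally only Acer2 passed, as lower, against 8.39% higher and 9.21% lower. These 3 comparisons share the Scrambled libraries.

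Between the clones, a contrast that does not use Scrambled, Asah1 and Spns2 were higher in clone2 and Acer3 was lower, where 23.6% of all genes were higher and 25.5% lower. In the libraries labelled shYAP against shControl Acer3 rose and 8 of 9 genes did not pass, against a background of 5.47% higher and 5.9% lower. Between both controls, Scrambled against shControl, 0 of 9 passed with edgeR, DESeq2 or limma. With edgeR 1.76% of all genes passed as higher and 1.19% as lower. Of the 9, 0 had an unadjusted edgeR p under 0.05, a level at which no share of all genes was taken. The knockout effect minus the effect in the libraries labelled shYAP differed from 0 for Acer2 only, in a direction that 9% of all genes shared, while 9.84% were on the higher side. The medians of the tested members were 0.06 in clone1, -0.19 in clone2, -0.23 between the clones and -0.11 in the libraries labelled shYAP, beside 0.03, -0.03, -0.05 and -0.05 over all genes. The shares of members called are of 8 or 9 genes, so 1 gene is a large step. With the run as a random block in limma, 2 of the 11 changes passed, Spns2 in clone2 against Scrambled and Asah1 between the clones.

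**Figure D2:**
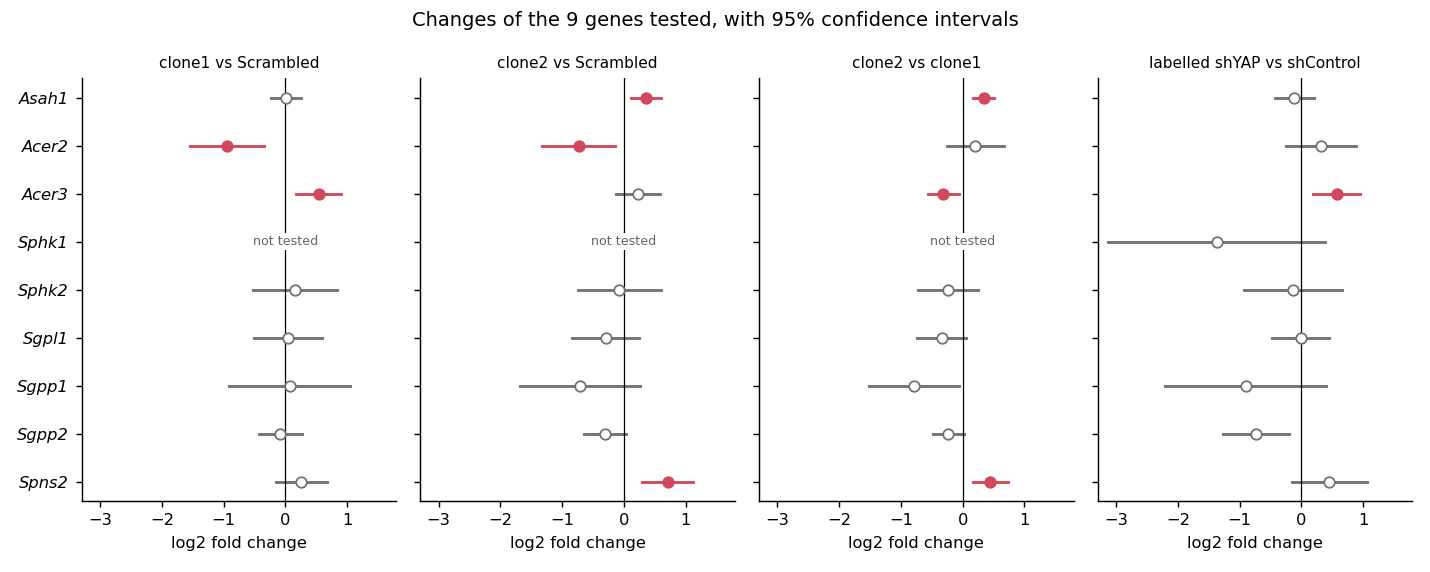
Log2 fold change (horizontal axis) with its 95% confidence interval for 9 genes in 4 comparisons, filled red where the adjusted p is under 0.05 and open grey where it is not. Acer2 lies below 0 in both clones, Asah1 and Spns2 lie above 0 in clone2 against either group, and Acer3 lies above 0 in clone1 and in the libraries labelled shYAP.

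Acer2, the Golgi alkaline ceramidase, was 1.79 times lower in the knockout clones than in Scrambled. The Scrambled libraries held 17.3, 13.6 and 13.4 CPM. Clone1 ranged from 3.65 to 15.5 CPM with a median of 7.97, and clone2 from 4.803 to 14.5 with a median of 8.17. In clone1 8 of 9 libraries and in clone2 7 of 9 lay below the lowest Scrambled library, and the exceptions were clone1 replicate 2, the shallowest library, and clone2 replicates 3 and 9. Acer2 fell by 0.94 ± 0.29 (log2, SE) in clone1 (edgeR adjusted p = 0.0279), by 0.74 ± 0.29 in clone2 (adjusted p = 0.0471) and by 0.84 ± 0.27 in both together (adjusted p = 0.0236, 95% confidence interval of the change -1.38 to -0.30). The clones did not differ from each other beyond their spread (0.21 ± 0.23, interval -0.25 to 0.67). The call for both clones was lost without Scrambled replicate 1, 2 or 3, at -0.72, -0.89 and -0.91 (adjusted p = 0.163, 0.0734 and 0.0571), and with replicates 7 to 9 of the clones alone, where the change was -0.54 (adjusted p = 0.0585), so it rests on having all 3 controls. In clone2 replicates 7 to 9 alone the change was -0.31 (adjusted p = 0.339), with a mean of 11.7 ± 2.61 CPM (n = 3), beside 5.90 ± 1.55 (n = 2) in replicates 1 to 2 and 8.26 ± 4.12 (n = 4) in replicates 3 to 6.

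Acer2 in the hairpin experiment spanned the levels of Scrambled and overlapped the upper part of the range of the clones. The libraries labelled shYAP stood at 21.3, 16.3 and 22.1 CPM, all above every library of either clone, a separation that 10.9% of all genes showed against clone1 and 14.2% against clone2. The shControl libraries ranged from 8.27 to 22.4 CPM with a median of 16.9. Their replicates 5 to 7, at 8.95 ± 1.14 CPM (n = 3), lay in the range of the knockout clones, while replicates 1 to 4 averaged 19.5 ± 3.12 (n = 4) and replicates 8 to 10 averaged 18.1 ± 1.99 (n = 3). The lowest shControl library, without a Degs1 edit, lay inside the range of both clones, above their medians of 7.97 and 8.17 CPM. Acer2 in the libraries labelled shYAP differed from shControl by 0.32 ± 0.27 (adjusted p = 0.485). The difference between the knockout effect and that effect was -1.16 ± 0.39 (adjusted p = 0.0320). It was lost with shControl replicates 8 to 10 alone (-0.99, adjusted p = 0.108), and without Scrambled replicate 1 (-1.04) or 2 (-1.21) or replicate 1 (-1.11) or 3 (-1.08) labelled shYAP.

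Acer3, the alkaline ceramidase of endoplasmic reticulum and Golgi, was highest in the libraries labelled shYAP. These stood at 46.4, 47.6 and 64.4 CPM. The shControl libraries ranged from 25.8 to 47.9 CPM with a median of 34.7, and 1 of them, replicate 3, reached into the range of the former. The rise was 0.58 ± 0.18 (edgeR adjusted p = 0.0450), and it was not past the threshold without any 1 of the 3 libraries labelled shYAP (0.39 to 0.67, adjusted p = 0.0819 to 0.333). The mean of 52.8 ± 10.1 CPM (n = 3) leaned on replicate 3 of that group, and without it the change was 0.39.

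In the CRISPR experiment Scrambled held 29.8, 26.4 and 29.4 CPM of Acer3. Clone1 ranged from 28.7 to 46.7 CPM, with all libraries but the shallow replicate 2 above Scrambled, and rose by 0.54 ± 0.18 (adjusted p = 0.0393). Without Scrambled replicate 1, 2 or 3 the change was 0.57, 0.50 and 0.56 and no longer passed (adjusted p = 0.110, 0.188 and 0.106). Clone2 fell into separate levels by run: replicates 1 to 6 held 34.004 to 47.4 CPM, above all Scrambled libraries, and replicates 7 to 9 held 23.8, 23.6 and 23.3, below them. Replicates 1 to 6 alone gave a rise of 0.46 against Scrambled (adjusted p = 0.0197), replicates 7 to 9 alone -0.27, and all 9 together 0.23 ± 0.18 (adjusted p = 0.337). The lower level of Acer3 in clone2 than in clone1 (-0.31 ± 0.12, adjusted p = 0.0355) was that of the last run: with replicates 1 to 6 of each clone it was -0.09 (adjusted p = 0.609), and with replicates 7 to 9 -0.81 (adjusted p = 3.03e-05).

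Asah1 (ENSMUSG00000031591, chromosome 8, 41340197 to 41374773), acid ceramidase, was 1.27 times higher in clone2 than in clone1. Clone2 ranged from 181 to 264 CPM with a median of 243, and clone1 from 151 to 209 with a median of 184. Scrambled, at 174, 166 and 194 CPM, lay inside the range of clone1. The difference between the clones was 0.34 ± 0.08 (edgeR adjusted p = 8.08e-04), and clone2 exceeded Scrambled by 0.35 ± 0.12 (adjusted p = 0.0204), while clone1 stood at 0.01 ± 0.12 (interval -0.23 to 0.25). Replicates 7 to 9 were lower in both clones: in clone1 they averaged 157 ± 9.19 CPM (n = 3) against 189 ± 18.8 (n = 6) in replicates 1 to 6, and in clone2 192 ± 9.60 (n = 3) against 252 ± 11.5 (n = 4) in replicates 3 to 6. The clones differed within replicates 1 to 6 (0.38) and within replicates 7 to 9 (0.31, adjusted p = 3.46e-04 and 0.00398), and clone2 replicates 7 to 9 alone did not pass against Scrambled (0.12, adjusted p = 0.303). Leaving out Scrambled replicate 1 or 2 also ended the call against Scrambled (0.33 and 0.31, adjusted p = 0.0908 and 0.107).

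How libraries were scaled bears on this difference. TMM scaling factors were 0.813 to 0.979 in clone2 and 0.944 to 1.14 in the other groups. With library totals alone, an alternative added after seeing the data, Asah1 in clone2 was 0.13 above clone1 (adjusted p = 0.162) and 0.14 above Scrambled (adjusted p = 0.357), and neither passed. The median of all genes between the clones then moved from -0.05 to -0.27, with 1820 genes higher and 4449 lower in place of 2717 and 2932. Relative to that median Asah1 stood 0.40 higher in clone2 under both scalings. Taking off the median removes a shift shared by all genes, so both scalings had to give nearly the same value. This is no check on the call. The other group levels of Asah1 were 170 ± 28.2 CPM for shControl (n = 10) with 4 of its libraries above the lowest clone2 library. The libraries labelled shYAP held 149, 157 and 168 CPM, below every clone2 library, a separation that 14.2% of all genes showed. They differed from shControl by -0.11 ± 0.15 (interval -0.43 to 0.21).

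Asah2 (ENSMUSG00000024887, chromosome 19, 31982597 to 32108211), neutral ceramidase, was barely detected. It had 145 counts in all 34 libraries together, with 0 counts in 9 of them. Scrambled held 4, 5 and 7 counts and the libraries labelled shYAP 3, 4 and 4. Clone1 and clone2 held 0 to 7 and 0 to 8 counts per library and shControl 0 to 31. The groups overlapped, and no test was made.

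**Figure D3:**
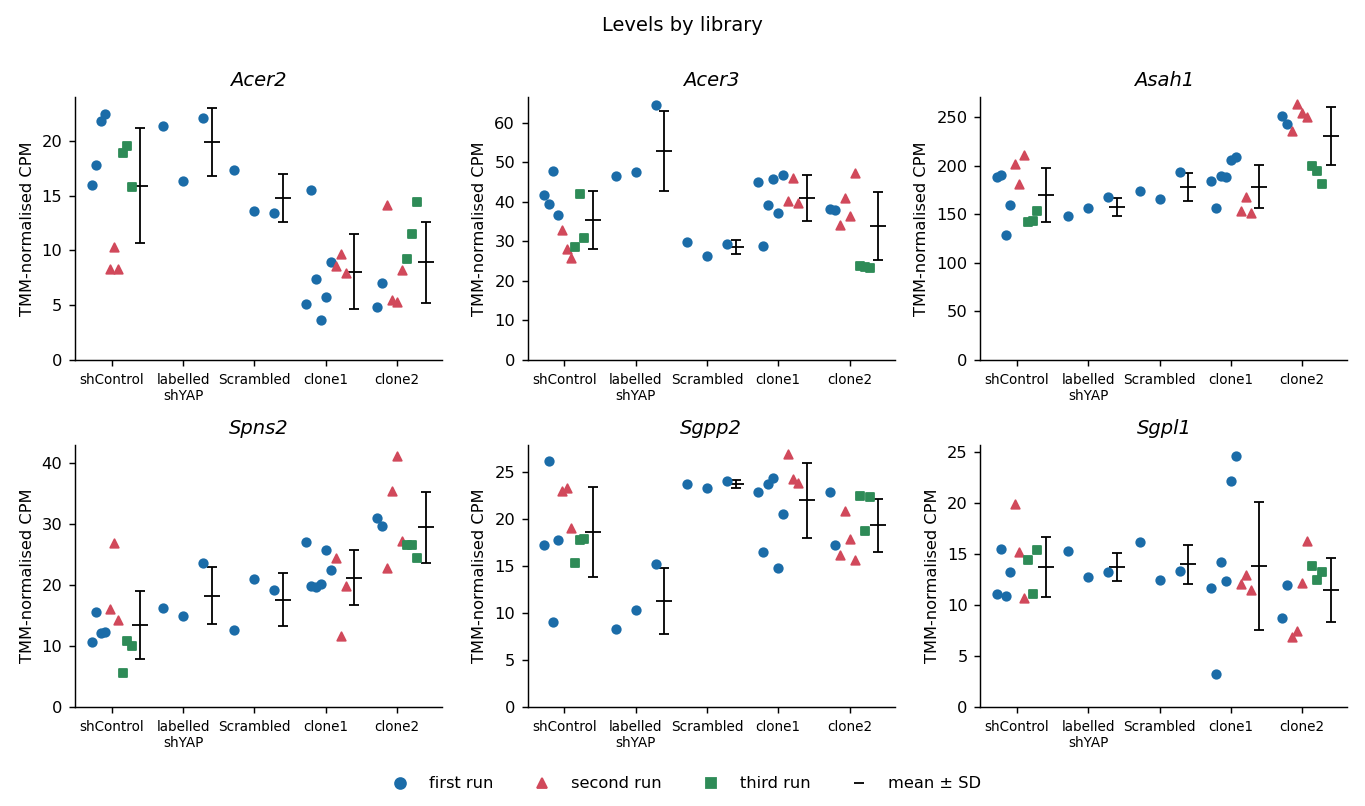
TMM-normalised CPM (vertical axes from 0) of 6 genes in each library of the 5 groups, in replicate order, with the shape and colour giving the run within a group and the black mark the mean ± SD. Acer2 is low in both clones and in the second run of shControl, and the third run of clone2 is lower than the other runs in Acer3 and Asah1.

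Of the kinases, Sphk2 (ENSMUSG00000057342, chromosome 7, 45709467 to 45718002), the mostly nuclear and mitochondrial enzyme, passed in no comparison. Its mean was 5.72 ± 2.45 CPM for Scrambled (n = 3), 6.23 ± 1.90 for clone1 (n = 9), 5.48 ± 1.91 for clone2 (n = 9), 5.69 ± 2.74 for shControl (n = 10) and 5.11 ± 1.10 for the libraries labelled shYAP (n = 3). Its largest fitted change was -0.23 ± 0.24, between the clones. The interval ran from -0.72 to 0.25, and changes within it were not excluded by that fit. Intervals were wider in the other comparisons, as from -0.92 to 0.65 for the libraries labelled shYAP against shControl. The direction between the clones turned with the run, at -0.47 with replicates 1 to 6 (adjusted p = 0.209) and 0.26 with replicates 7 to 9 (adjusted p = 0.602). Sphk2 overlaps the ribosomal protein gene Rpl18 on the other strand, which had 211549 counts against 870 for Sphk2. The labels' protocols describe strand-specific libraries, but whether strand was used in counting is not given in the sources used here. Stray Rpl18 reads in Sphk2 thus cannot be told apart from its own.

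Sphk1 (ENSMUSG00000061878, chromosome 11, 116530925 to 116536674), the cytosolic kinase induced by growth factors, had 147 counts in all libraries. Scrambled held 2, 7 and 8 counts, clone1 1 to 6, clone2 2 to 8 and shControl 2 to 15. The libraries labelled shYAP held 0, 4 and 3. The fitted difference of the latter from shControl was -1.37 ± 0.85 (adjusted p = 0.317), and its interval from -3.13 to 0.39 shows how little these counts resolve.

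Sgpl1 (ENSMUSG00000020097, chromosome 10, 61098642 to 61147703), the S1P lyase, had nearly the same mean in 4 groups. Its mean was 14.0 ± 1.91 CPM for Scrambled (n = 3), 13.9 ± 6.27 for clone1 (n = 9), 13.8 ± 2.94 for shControl (n = 10) and 13.8 ± 1.35 for the libraries labelled shYAP (n = 3). Clone2 averaged 11.5 ± 3.12 CPM (n = 9), a change of -0.29 ± 0.27 against Scrambled (adjusted p = 0.428). Clone1 was the most spread, from 3.32 CPM on 3 counts in the shallow replicate 2 to 24.7. Between the clones Sgpl1 stood at -0.57 with replicates 1 to 6 (adjusted p = 0.0859) and at 0.13 with replicates 7 to 9 (adjusted p = 0.663), and clone1 against Scrambled likewise turned from 0.18 to -0.21 (adjusted p = 0.751 and 0.609).

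Sgpp2 (ENSMUSG00000032908, chromosome 1, 78310345 to 78420289), the inducible S1P phosphatase, was lowest in the libraries labelled shYAP, short of the threshold. These held 8.38, 10.4 and 15.2 CPM. The shControl libraries ranged from 9.09 to 26.3 CPM with a median of 17.9, and overlapped them only through the shallow replicate 3. The difference was -0.73 ± 0.26 (edgeR adjusted p = 0.0651). Without shControl replicate 3 it was -0.80 and passed (adjusted p = 0.0248). It also passed with the Wald test of DESeq2 (-0.73, adjusted p = 0.0354) and in the fit of all 34 libraries (-0.73, adjusted p = 0.0133). In the other 10 of 13 alternatives it did not pass, as with shControl replicates 8 to 10 alone (-0.59, edgeR adjusted p = 0.0717). In the CRISPR experiment Scrambled held 23.8, 23.3 and 24.1 CPM, clone1 14.9 to 27.0, and clone2 15.7 to 22.9, below every Scrambled library. Clone2 differed from Scrambled by -0.31 ± 0.17 (adjusted p = 0.158). With library totals alone it was -0.52 and passed (adjusted p = 0.0222). Ranges that did not overlap between clone2 and Scrambled were common: of 11960 genes 12.2% lay higher in clone2 and 11.7% lower, and of the 9 members Spns2 lay higher and Sgpp2 lower. Sgpp2 overlaps Farsb on the other strand, with 19903 counts, and the caution on strand holds for it too.

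Sgpp1 (ENSMUSG00000021054, chromosome 12, 75714249 to 75735729), the more widely expressed S1P phosphatase, was low throughout, with 375 counts in all. Its mean was 2.90 ± 1.51 CPM for Scrambled (n = 3), 2.95 ± 1.68 for clone1 (n = 9), 1.82 ± 0.807 for clone2 (n = 9), 2.28 ± 1.27 for shControl (n = 10) and 1.24 ± 0.599 for the libraries labelled shYAP (n = 3). Clone2 against clone1 gave -0.78 ± 0.36 (adjusted p = 0.0694). Against Scrambled, Sgpp1 in clone1 stood at -0.28 with replicates 1 to 6 and at 0.51 with replicates 7 to 9 (adjusted p = 0.783 and 0.518), and in clone2 at -1.11 and -0.14 (adjusted p = 0.117 and 0.847), so none of these passed. With library totals alone the difference between the clones was -0.999 and passed (adjusted p = 0.0212), as did Sgpl1 (-0.54, adjusted p = 0.0203) and Sgpp2 (-0.45, adjusted p = 0.00512).

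Spns2 (ENSMUSG00000040447, chromosome 11, 72451638 to 72489904), the S1P exporter, was 1.63 times higher in clone2 than in Scrambled. Clone2 ranged from 22.9 to 41.2 CPM with a median of 27.2. Scrambled held 12.7, 21.003 and 19.3 CPM, all below clone2. Clone1 ranged from 11.7 to 27.1 CPM with a median of 20.2 and overlapped both. Spns2 rose by 0.71 ± 0.20 in clone2 against Scrambled (edgeR adjusted p = 0.00624) and was 0.45 ± 0.14 higher in clone2 than in clone1 (adjusted p = 0.00804). Clone1 against Scrambled stood at 0.26 ± 0.20 (adjusted p = 0.461). The call against Scrambled was lost without Scrambled replicate 1, the lowest of the 3 (0.52, adjusted p = 0.0933), and with library totals alone (0.50, adjusted p = 0.0509). Between the clones library totals gave 0.23 (adjusted p = 0.173). Relative to the median of all genes it was 0.49, beside 0.50 with TMM, values that are close by construction. With replicates 7 to 9 alone the clones differed by 0.49, which did not pass (adjusted p = 0.0665).

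Spns2 also varied among the hairpin libraries. The shControl libraries ranged from 5.59 to 26.9 CPM with a median of 12.3, and averaged 12.7 ± 2.02 (n = 4) in replicates 1 to 4, 19.1 ± 6.83 (n = 3) in replicates 5 to 7 and 8.83 ± 2.84 (n = 3) in replicates 8 to 10. The libraries labelled shYAP held 16.3, 14.9 and 23.6 CPM. Against all shControl libraries the difference was 0.45 ± 0.29 (adjusted p = 0.340). Against replicates 8 to 10 alone it was 1.02 (adjusted p = 0.00294), so the result depends on the shControl run. The same replicates alone placed Scrambled above shControl in Spns2 by 1.01 (adjusted p = 0.0174), the only call among the members in that comparison under any alternative run. Spns2 overlaps Mybbp1a on the other strand, with 7057 counts.

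**Figure D4:**
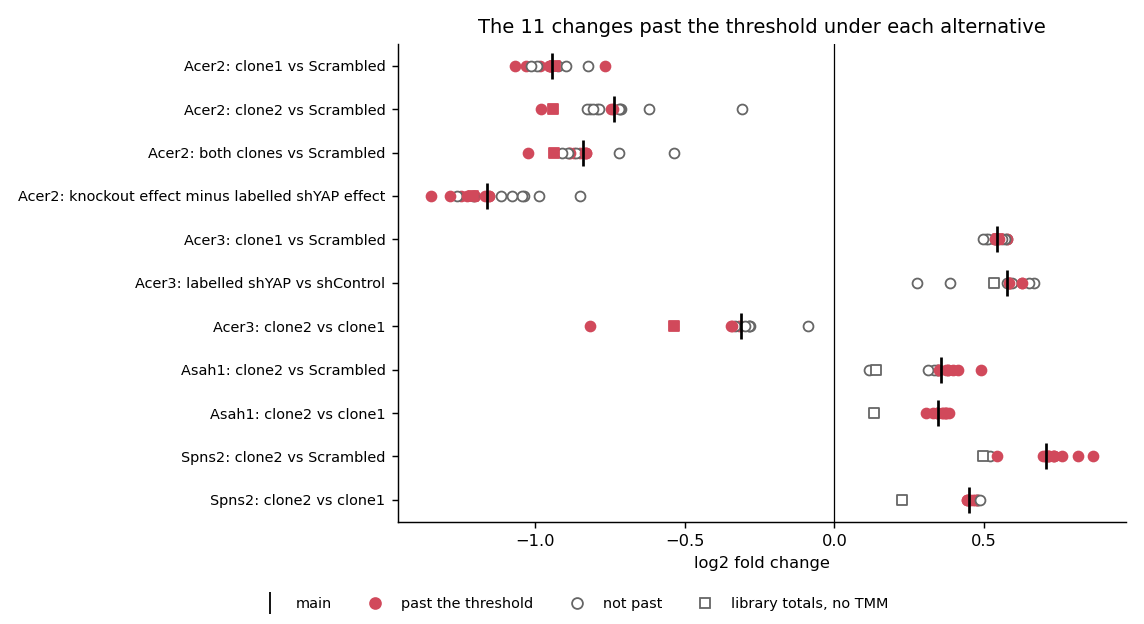
Log2 fold change (horizontal axis) of the 11 changes past the threshold, with the main value as a black tick and each alternative as a point, filled where the adjusted p was under 0.05, open where it was not, and square for library totals without TMM factors. Every point keeps the sign of its main value, and the Acer2 and Acer3 results have more open points than Asah1 and Spns2 between the clones.

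Of the 5 S1P receptors only S1pr2 passed the filter. It was higher in clone2 than in clone1 (0.95 ± 0.36, adjusted p = 0.0256), at 3.13 ± 1.26 against 1.78 ± 1.16 CPM (n = 9 each), and did not pass in any other comparison. S1pr4 and S1pr5 had 0 counts in every library. Of 12 other genes of S1P transport, S1P degradation and ceramide hydrolysis, 9 were tested in the CRISPR experiment. In clone2 against Scrambled 1 was higher and 4 were lower, beside 16.5% and 16.6% of all genes. The largest of these were Plpp3 (-2.62 ± 0.74, on 0 to 15 counts per library) and Plpp2 (-0.65 ± 0.17), lipid phosphatases that act on extracellular S1P, Cib1 (-0.97 ± 0.13), which helps bring Sphk1 to the membrane, and Aldh3a2 (-0.72 ± 0.16), an aldehyde dehydrogenase downstream of the lyase. In clone1 against Scrambled the alkaline ceramidase Acer1 rose by 1.14 ± 0.31 (adjusted p = 0.00945), the only 1 of the 9, beside 5.96% of all genes, and in the libraries labelled shYAP 0 of 9 passed with edgeR.

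Between the clones 2 of these 9 genes were higher in clone2 and 6 lower, beside 23.6% and 25.5% of all genes, with a median of -0.72 beside -0.05. Acer1 (-1.65 ± 0.22), Plpp2 (-1.04 ± 0.12), Aldh3a2 (-0.75 ± 0.12) and Cib1 (-0.72 ± 0.10) were the largest. Psap, whose saposin products help acid ceramidase act on its substrate, was higher in clone2 than in clone1 (0.41 ± 0.08, adjusted p = 2.80e-05), at 191 ± 8.92 against 141 ± 19.6 CPM, as Asah1 was. Acer1 was thus highest in clone1, at 9.63 ± 2.40 CPM against 4.43 ± 0.370 in Scrambled and 3.14 ± 1.01 in clone2.

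Of 21 lysosomal genes, the compartment of Asah1, 7 were higher and 1 lower in clone2 against Scrambled, and 4 were higher and 2 lower in clone1. The shares of all genes were 16.5% higher and 16.6% lower in clone2, and 5.96% and 6.71% in clone1. Lamp2, a membrane protein, rose most in clone2 (1.45 ± 0.17), and the acid lipase Lipa fell by 1.33 ± 0.38. Between the clones 5 were higher and 5 lower, beside 23.6% and 25.5% of all genes, with Lipa (-1.78 ± 0.29) and Hexa (1.28 ± 0.16) the largest, so the list did not move one way with Asah1. Of 23 tested genes of ceramide supply and use, 6 were higher and 4 lower in clone2, and 3 higher and 2 lower in clone1, Degs1 among the lower in each, beside the same shares of all genes. In the libraries labelled shYAP only Degs1 (1.47 ± 0.29) rose and only Ugcg, glucosylceramide synthase, fell, by 1.84 ± 0.26 on the log2 scale, beside 5.47% and 5.9% of all genes. The lists were not tested as sets.

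Genes whose pattern over the 34 libraries lay closest to a member were found by the root mean square difference of mean-centred log2 CPM among 10765 genes. Asah1 had the nearest neighbours, Cab39l (0.13), Amn1 (0.14) and Rnf13 (0.15), beside its own SD of 0.27. For Spns2 they were Tspan4 (0.32), Napg (0.34) and Odr4 (0.35), beside an SD of 0.59. For Acer2 they were Hspe1 (0.43), Nudc (0.46) and Atp1b3 (0.46), beside an SD of 0.70. Acer3 lay nearest to Commd2 (0.25), Myl12a (0.25) and Cldnd1 (0.26), beside 0.35. Sgpp2 lay nearest to Cpsf3 (0.28), Gatd1 (0.29) and Slc35a3 (0.29), beside 0.40, and Sgpl1 to Tor2a (0.36), Dpf2 (0.36) and Rasa1 (0.38), beside 0.48. Values near the member's own SD mean that no gene followed it closely.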

How the data were processed

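Poly(A)-selected, strand-specific RNA libraries of organoids were sequenced, per the labels' protocols. Expected counts, 1 value per gene and library, were deposited by the authors, who used Salmon 1.3.0 on mm10, per the submitters' processing notes. All values were whole numbers and unscaled. How transcripts were summed to genes and the annotation release are not given in the sources used here. Gene positions and exon lengths came from GENCODE M21 on the same build. The members, gene lists and runs were chosen with earlier results of these data known.

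After filterByExpr (counts of at least 10, a total of at least 15) and TMM scaling, edgeR 4.0.16 (R 4.3.3) tested each gene by its quasi-likelihood test with robust dispersions, two-sided, with Benjamini-Hochberg adjustment over all genes tested and a threshold of 0.05. The fits held 21 CRISPR libraries (11514 genes), 13 hairpin libraries (11094) and all 34 (11960, for Scrambled against shControl and for the difference of effects). Errors of log2 changes are standard errors. CPM values use TMM factors over 34 libraries. Replicate numbers did not pair libraries (correlations of deviations from -0.069 to 0.076), and no 2 libraries were identical. All 10 members were named, up to 4 of the largest changes past the threshold per list, and the nearest 3 genes by pattern for members whose mean log2 CPM was 3 or more. One gene that this rule selected is not reported here. Steps were tested on simulated data. Alternatives used DESeq2 1.42.0, limma 3.58.1 with a prior count of 2, other scalings and filters, and subsets of libraries.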

Additional observations from a re-analysis of the deposited data

Results flagged for a closer look

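In 30 sets of 9 or 10 libraries (10 genes in 3 groups), 4 had a library whose gap to the rest exceeded Dixon's 95% value. Chance gives about 1 in 20 for normally distributed values. These sets hold CPM, some from very low counts, and mix several runs, so that rate is only a rough guide. Asah2 was 6.26 CPM in shControl replicate 2, next to 2.04 in the nearest library. Sgpl1 was 19.9 CPM in shControl replicate 5, next to 15.6. Spns2 was 26.9 CPM in shControl replicate 6, next to 16.0, and 11.7 CPM in clone1 replicate 8, at the low end, next to 19.7.

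The effects of the clones differed from each other by a direct test in 3 genes, with values of clone2 minus clone1 on the log2 scale: -0.31 for Acer3, 0.34 for Asah1 and 0.45 for Spns2. The Acer3 value changed from -0.09 in replicates 1 to 6 to -0.81 in replicates 7 to 9. The knockout effect and the effect in the libraries labelled shYAP differed for Acer2, by -1.16.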

How the results depend on the processing

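Over 59 results of single members under all alternatives, 757 values kept their direction or their side of the threshold, 59 lost a call, 13 gained one and 0 called values changed sign. Asah1 between the clones kept its call in 11 of 12 alternatives and Spns2 in clone2 against Scrambled in 12 of 14, while Acer2 in clone2 kept it in 4 of 14. The number of members called moved as follows. In clone1 against Scrambled it went from 2 to 0 in both limma fits, and to 1 in the fit of all libraries. In clone2 it went from 3 to 1 in limma with the run block and with replicates 7 to 9 alone, and in library totals it was 2 of which only Acer2 was shared. With both clones it went from 1 to 0 in limma with the run block and with replicates 7 to 9 alone, and to 4 with replicates 1 to 6 alone. Between the clones it went from 3 to 1 in limma with the run block, and to 4 with library totals, with only Acer3 shared. In the libraries labelled shYAP it went from 1 to 0 in both limma fits and with library totals, and to 2 with DESeq2, in the fit of all libraries and against shControl replicates 8 to 10 alone. Scrambled against shControl went from 0 to 1 with those replicates. The difference of effects went from 1 to 0 with the run block, with shControl replicates 8 to 10 alone and with knockout replicates 7 to 9 alone. Leaving out 1 library gave 0 to 2 members in clone1, 0 to 2 in clone2, 0 to 1 in both clones, 3 between the clones, 0 to 2 in the libraries labelled shYAP, 0 between the controls and 0 to 1 in the difference of effects.

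Replicate numbers paired no libraries. With the replicate number as a replicate block, members called went from 2 to 1 in clone1, 1 to 0 in the libraries labelled shYAP and 1 to 0 in the difference of effects, and were 2, 1, 3 and 0 in clone2, both clones, between the clones and between the controls. Over all genes, counts of calls moved by over 1.5 times in these cases. With the run block they were 456 for 1459 in clone1, 2271 for 3810 in clone2, 908 for 2027 in both, 298 for 1261 in the libraries labelled shYAP, 64 for 353 between the controls and 746 for 2253 in the difference of effects. Without Scrambled replicate 1 or 2 they were 804 and 779 in clone1, 1254 and 1208 in both clones, and 130 and 102 between the controls, with 195 there without replicate 3. Without replicate 1, 2 or 3 labelled shYAP they were 509, 412 and 515. That comparison had 2065 in the fit of all libraries and 2229 against shControl replicates 8 to 10, and the difference of effects 1423 with these. The controls fitted alone gave 191. Library totals without TMM factors moved the median of all genes from -0.03 to -0.24 in clone2 and from -0.0020 to -0.10 in both clones, and the share of higher calls from 49.9% to 28.7% in clone2, from 47.7% to 31.9% in both clones, from 48.1% to 29.0% between the clones and from 48.1% to 35.8% in the libraries labelled shYAP. The cause of these shifts was not tested. Depth limits Asah2, Sphk1 and Sgpp1, with at most 375 counts each in all libraries.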
